A study of Mus musculus with 7 samples.

Results

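Transcription factors that endothelial cells use to set and keep their identity were followed in ribosome-bound RNA of the mouse retina. The 10 genes were chosen by name, as known endothelial factors, and are Erg, Fli1, Ets1, Ets2, Sox7, Sox17, Sox18, Tal1, Gata2 and Nr2f2. All 10 were among the 12756 genes of the deposited table. Retinas came from adult C57BL/6 mice of the genotype Cdh5-CreERT2 Rpl22 tm1.1Psam. In this genotype, as background, the endothelial cadherin promoter drives a Cre that needs tamoxifen, and Rpl22 of the ribosome carries an HA epitope wherever that Cre has acted. Ribosomes were captured through HA, and their RNA was read from its 3′ ends (QuantSeq). The comparison was between 3 libraries from mice given a control IgG and 4 libraries from mice given an antibody against Dll4, a Notch ligand of endothelial cells. The labels do not tie a library to a separate animal. The p-values therefore measure the spread from library to library, which may be technical in part.

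Endothelial identity rests on a few families of DNA-binding proteins that act together. Erg, Fli1, Ets1 and Ets2 are ETS factors, which bind a GGAA core found in the enhancers of most endothelial genes. Sox7, Sox17 and Sox18 form the SoxF family and act in arterial specification and vessel growth, partly beside Notch signalling. Tal1 and Gata2 work in a complex shared with blood stem cells, and Nr2f2 (COUP-TFII) is the factor of venous identity, known for restraining Notch genes in veins.

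The libraries held 1356192 to 1771086 reads over the listed genes, and values are given as reads or as CPM, which are reads scaled to a fixed total over the listed genes. The pull-down held RNA of other cells as well. In control libraries 2.60% of all CPM came from 16 rod markers and 0.364% from the 19 endothelial markers in the table. The summed endothelial markers were at 2841, 4757 and 3334 CPM in control IgG 1, 3 and 4, and at 6604, 6842, 9556 and 7478 CPM in anti-Dll4 1 to 4. Every anti-Dll4 library thus lay above every control library (exact permutation p = 0.0286 over 35 assignments, the smallest they can give, two-sided). Single markers were less even. Of the 19, 17 had a positive and 2 a negative log2 change. The 1 marker with an adjusted p under 0.05 was Ly6c1 (log2 change 2.06, adjusted p = 0.0319, limma), against 0.119% of all tested genes. Groups were apart for 7, all higher in anti-Dll4, against 3.84% of all tested genes. The log2 change of Kdr was -0.46 and that of Pecam1 0.34 (adjusted p = 0.87 and 0.916, limma). Podxl, a surface sialomucin, held 38.0% of that sum. Rod markers were at 25290 to 26370 CPM under control IgG and 11550 to 21110 CPM with anti-Dll4 (p = 0.0571 in the same exact two-sided test). These shifts stand beside each result that follows. In such pull-down RNA the number of cells of a type, their RNA per cell and the share of it captured cannot be told apart.

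None of the 10 factors passed the test. Of 10899 genes tested with limma, 13 (0.119%) had an adjusted p under 0.05, and 0 of the 9 tested factors were among them; limma on whole reads with voom weights called 0 as well. One factor, Ets2, had an unadjusted p under 0.05, as did 7.09% of all tested genes. Of the 9, 6 had a positive change, with a median log2 change of 0.44, against -0.14 over all genes tested, of which 45.5% were positive. The median of the 19 endothelial markers, 17 of them positive, was higher than that of the factors, at 1.56. Sox7, the remaining factor, was under the filter of 1 CPM in 3 libraries and was not tested.

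**Figure D1:**
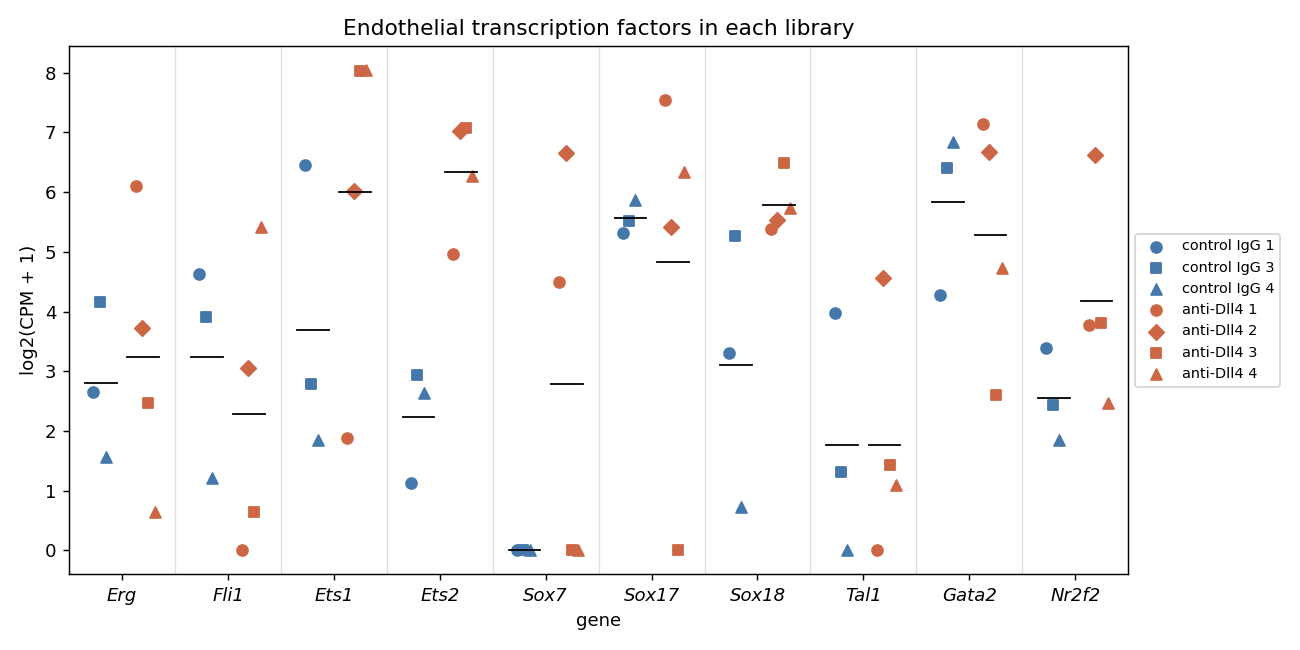
Each point is 1 library (log2(CPM + 1) on the y axis, genes on the x axis, blue for control IgG and orange for anti-Dll4), and black bars are group means. The groups are apart for Ets2 and Sox18 and overlap for the other tested factors, with Sox7 at 0 in 5 of the 7 libraries.

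Ets2 had the largest change of the 9. Ets2 is a broadly expressed ETS factor that MAP kinases activate by phosphorylation. It had 2, 9 and 8 reads in control IgG 1, 3 and 4 and 45, 212, 236 and 135 reads in anti-Dll4 1 to 4, which is 1.18 to 6.64 CPM against 30.1 to 134 CPM. Each anti-Dll4 library was above each control library, with the lowest value of that group in anti-Dll4 1. Mean levels were 4.34 ± 2.83 CPM (SD, n = 3) and 92.4 ± 49.1 CPM (SD, n = 4). The log2 change was 4.10 ± 1.28 (SE), with a 95% interval of 1.43 to 6.77 and an adjusted p of 0.393 (limma), so that it did not pass over all genes. Its unadjusted p of 0.00433 was the 116th smallest of the 10899.

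The groups stayed apart for Ets2 relative to the endothelial markers. Per 1000 CPM of endothelial markers, Ets2 was at 0.416, 1.40 and 1.56 CPM under control IgG and at 4.56, 18.9, 14.0 and 10.2 CPM under anti-Dll4. With the libraries scaled on endothelial markers, its log2 change was 3.19 (adjusted p = 0.199, limma), while the median of all genes moved from -0.14 to -1.07. No other annotated gene lies over the last 1000 bases of Ets2 on either strand in GENCODE M21, which is where 3′-end reads would fall.

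The sequence at the start of Ets2 is shown because this factor had the largest change. RefSeq promoter windows (250 bases before to 50 after a start, GRCm38.p6) were matched for 5 of the 10 factors. The deposited table names no mouse build, so the position belongs to the RefSeq table only: chr16:95702157-95702456, plus strand, with the GGAA core of ETS factors (here on the other strand, as TTCC) in capitals.
Ets2 start: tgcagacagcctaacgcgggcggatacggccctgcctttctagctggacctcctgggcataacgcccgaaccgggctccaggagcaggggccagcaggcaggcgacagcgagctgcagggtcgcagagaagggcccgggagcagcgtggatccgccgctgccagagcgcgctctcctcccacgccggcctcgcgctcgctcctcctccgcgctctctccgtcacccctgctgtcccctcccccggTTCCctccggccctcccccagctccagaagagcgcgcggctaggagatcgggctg
The window held 1 match to GGAA, counted on both strands, a run of letters present in 96.0% of 32851 promoter windows of this length. It held no match to CCGGAA (in 14.9% of windows, and itself a case of GGAA), to the SOX letters ACAAT (31.0%), to the GATA letters AGATAA (11.2%) or to CAGATG, an E-box of the kind Tal1 complexes bind (17.2%). Of the other matched factors, Erg had ACAAT in 1 of 3 windows and AGATAA in 1 of 3, and Tal1 had AGATAA in 1 of 2 and CAGATG in 1 of 2. Gata2 and Nr2f2 windows held GGAA and none of the other letters. These are matches of letters, not sites of binding.

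Ets1, a close relative of Ets2 that is high in endothelium and lymphocytes, split the libraries differently. It had 147, 8 and 4 reads in control IgG 1, 3 and 4 and 4, 104, 462 and 467 reads in anti-Dll4 1 to 4. The 2 highest libraries were anti-Dll4 3 and 4, at 262 and 264 CPM, yet anti-Dll4 1, at 2.68 CPM, was as low as the lowest control, so the groups overlap. The log2 change was 2.30 ± 1.47 (SE, 95% interval -0.76 to 5.35, adjusted p = 0.765, limma). The change was 3.67 without anti-Dll4 1 (adjusted p = 0.46) and 3.68 without control IgG 1 (adjusted p = 0.903, both limma). It was 1.37 without control IgG 4 (adjusted p = 0.932) and 1.30 with endothelial marker scaling (adjusted p = 0.655, both limma). With libraries of the same title number set as blocks, the change of Ets1 was 5.72, the largest of its alternatives. Only numbers 3 and 4 are in both groups, so that value rests on them. Control IgG 1 and anti-Dll4 1 and 2 stand alone in their blocks and do not bear on it.

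Erg and Fli1 are the pair of ETS factors most tied to the mature endothelium, where Erg sustains junction genes such as Cdh5. Erg had 9, 23 and 3 reads under control IgG and 101, 20, 8 and 1 reads under anti-Dll4. Its highest and its lowest library were both anti-Dll4, numbers 1 and 4. Fli1 had 40, 19 and 2 reads under control IgG and 0, 12, 1 and 74 reads under anti-Dll4. Fli1 was highest in anti-Dll4 4, where Erg was lowest, and at 0 in anti-Dll4 1, where Erg was highest. Summed over both genes, levels were 28.9, 31.0 and 3.26 CPM under control IgG and 67.6, 19.6, 5.10 and 42.4 CPM under anti-Dll4, which overlap.

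The log2 change of Erg was 0.44 ± 1.75 (SE, 95% interval -3.20 to 4.08) and that of Fli1 -0.96 ± 1.74 (SE, 95% interval -4.58 to 2.65), with adjusted p of 0.973 and 0.936 (limma). Intervals this wide hold both a large fall and a large rise, so neither a change nor its absence is shown. For Erg the sign turned under endothelial marker scaling (-0.40), without control IgG 4 (-0.18) and without anti-Dll4 1 (-0.52). By position, the 4 ETS genes form 2 neighbouring pairs in GENCODE M21. Erg and Ets2 lie next to each other on chromosome 16, on opposite strands with 0 annotated genes between them, and Fli1 and Ets1 on chromosome 9 with 2 genes between, 0 of them protein-coding.

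**Figure D2:**
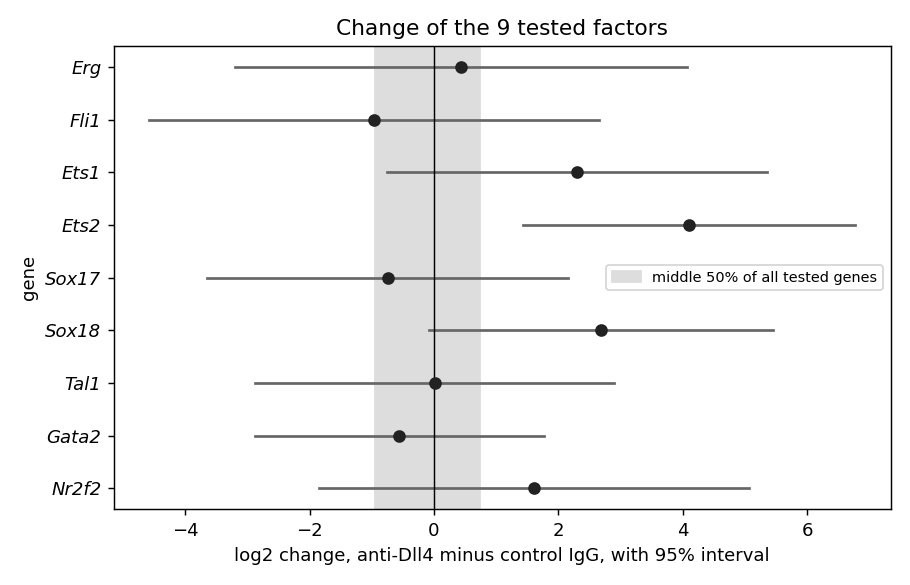
Points are log2 changes on the log2(CPM + 1) scale (anti-Dll4 minus control IgG, x axis) for the 9 tested factors (y axis), lines are limma 95% intervals, and the grey band holds the middle 50% of all tested genes. The interval of Ets2 lies above 0 and that of Sox18 reaches just below it (-0.08), while the others span 0 widely; none passed after adjustment over all genes.

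The 3 SoxF genes differed from each other. Sox18, a factor of vessel and lymphatic development, had 15, 51 and 1 reads in control IgG 1, 3 and 4 and 61, 74, 156 and 93 reads in anti-Dll4 1 to 4. On the CPM scale the groups were apart by a narrow margin, with 37.6 CPM in the highest control and 40.8 CPM in the lowest anti-Dll4 library. The anti-Dll4 libraries were close to each other (SD 0.49 on the log2 scale), whereas the control libraries ran from 0.652 to 37.6 CPM (SD 2.28).

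Sox18 had a log2 change of 2.69 ± 1.33 (SE, 95% interval -0.08 to 5.45) and did not pass (unadjusted p = 0.0561, adjusted p = 0.706, limma). Mean levels were 15.7 ± 19.4 CPM (SD, n = 3) and 56.8 ± 21.6 CPM (SD, n = 4). Without control IgG 4, the library with 1 read, the change was 1.50. Per 1000 CPM of endothelial markers the groups overlapped, at 3.12, 7.91 and 0.196 CPM under control IgG and 6.18, 6.62, 9.25 and 7.02 CPM under anti-Dll4. Ets2 and Sox18 were the 2 of 9 tested factors whose groups did not overlap; over all tested genes the groups were apart for 7.59%, and apart with higher anti-Dll4 values for 3.84%.

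Sox17, the SoxF factor of arteries, had the smallest spread of the 9 tested factors between control libraries, with 66, 61 and 88 reads (SD 0.28 on the log2 scale). The anti-Dll4 libraries had 278, 68, 0 and 141 reads. Their mean of 76.8 ± 79.8 CPM (SD, n = 4) was above the control mean of 47.1 ± 9.38 CPM (SD, n = 3), yet the log2 change was -0.75 ± 1.40 (SE, 95% interval -3.65 to 2.16, adjusted p = 0.94, limma), because of the 0 reads in anti-Dll4 3. Without that library the change was 0.86, so the direction of Sox17 rests on it.

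Sox7, which acts early in endothelial and blood development, had 0 reads in each control library and in anti-Dll4 3 and 4, with 32 and 164 reads in anti-Dll4 1 and 2. A count of 0 allows up to 1.77, 2.21 and 1.96 CPM in control IgG 1, 3 and 4 and 1.70 and 1.69 CPM in anti-Dll4 3 and 4 (3 reads each, counting error only), against 21.4 and 100.3 CPM in the other 2 libraries. In a fit without the filter its log2 change was 2.79 (adjusted p = 0.835, limma). Summed over Sox7, Sox17 and Sox18, levels were 47.8, 82.6 and 58.0 CPM under control IgG and 248, 187, 88.4 and 132 CPM under anti-Dll4. The sums do not overlap, by a narrow margin (82.6 against 88.4 CPM), and neither do the endothelial marker sums. This sum was not tested, and it includes Sox7, which was under the filter. Per 1000 CPM of endothelial markers, Sox17 was at 13.7, 9.46 and 17.2 CPM under control IgG. Under anti-Dll4 it was at 28.2, 6.08, 0 and 10.65 CPM, which overlaps. The gene that carried most of the sum was not the same in all anti-Dll4 libraries. It was Sox17 in numbers 1 and 4, Sox7 in number 2 and Sox18 in number 3.

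Tal1, a helix-loop-helix factor of blood and endothelial progenitors, was near the floor. It had 25, 2 and 0 reads under control IgG and 0, 37, 3 and 2 reads under anti-Dll4, so that 1 library of each group held nearly all of its reads. Its log2 change was 0.01 ± 1.39 (SE, 95% interval -2.87 to 2.89, adjusted p = 0.999, limma), and the sign turned under endothelial marker scaling (-0.58) and without control IgG 3 (-0.22), control IgG 4 (-0.87) or anti-Dll4 2 (-0.92).

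Gata2, a zinc-finger factor that drives genes such as endothelin 1 in endothelium, had 31, 114 and 175 reads under control IgG and 209, 166, 9 and 45 reads under anti-Dll4. Levels were 72.1 ± 49.0 CPM (SD, n = 3) and 68.0 ± 63.4 CPM (SD, n = 4), with anti-Dll4 1 and 2 high and 3 and 4 low. The log2 change was -0.56 ± 1.12 (SE, 95% interval -2.88 to 1.77, adjusted p = 0.942, limma) and became 0.34 without anti-Dll4 3. Blood cells also express Tal1 and Gata2. The 13 blood cell markers in the table (of 16) summed to 1642 to 21130 CPM under control IgG and 795 to 37880 CPM under anti-Dll4, each with reads in both groups. Their part in these values was not tested.

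Nr2f2, the venous factor, had 16, 6 and 4 reads under control IgG and 19, 159, 23 and 8 reads under anti-Dll4. Anti-Dll4 2, at 97.2 CPM, stood far above the other 3 anti-Dll4 libraries, which ran from 4.52 to 13.0 CPM against 2.61 to 9.44 CPM in control. The log2 change was 1.61 ± 1.66 (SE, 95% interval -1.85 to 5.07, adjusted p = 0.872, limma), and it was 0.79 without anti-Dll4 2 and 0.66 with endothelial marker scaling. Some amacrine neurons also express Nr2f2. The 11 amacrine markers in the table (of 12) summed to 581 to 839 CPM under control IgG and 357 to 658 CPM under anti-Dll4, and their part in the Nr2f2 reads was not tested.

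Among the cells a retina also holds, leukocytes express Fli1 and Ets1. The 6 microglia markers in the table (of 12) summed to 35.4 to 115 CPM under control IgG and 29.4 to 279 CPM under anti-Dll4, each with reads in both groups. Ptprc, the pan-leukocyte antigen CD45, had 3, 7 and 11 reads under control IgG and 86, 6, 77 and 23 reads under anti-Dll4. Whether such cells contributed reads was not tested.

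**Figure D3:**
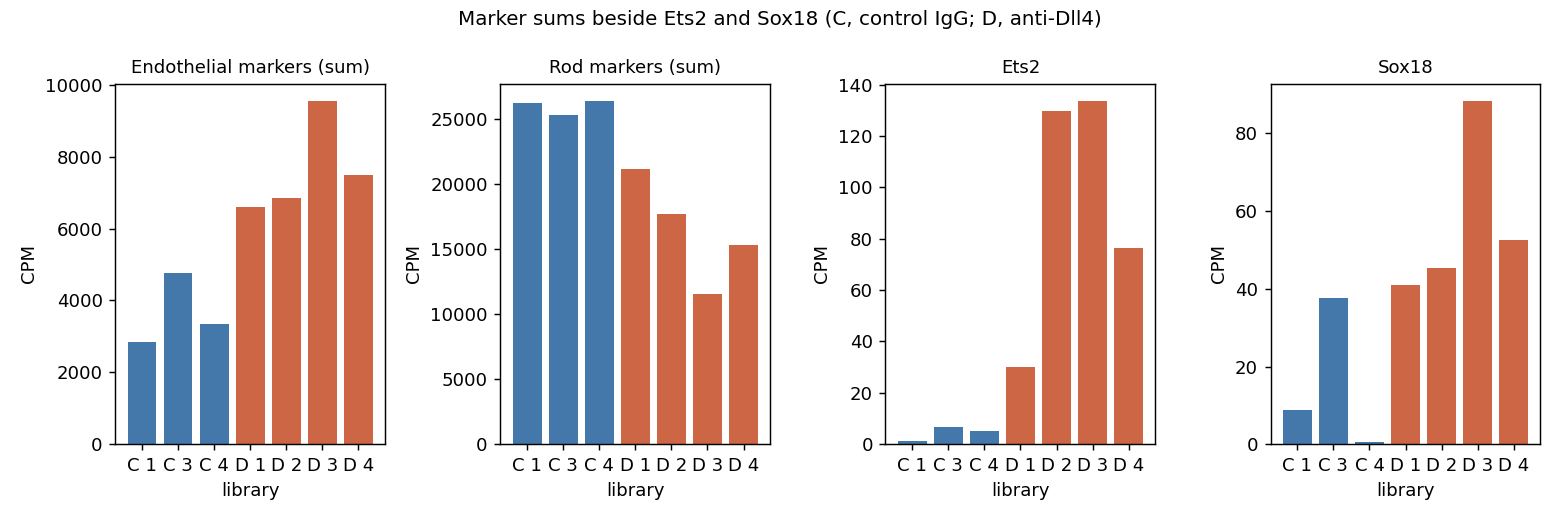
Bars are CPM in each library (y axis, starting at 0; x axis, C for control IgG and D for anti-Dll4) for the summed endothelial markers, the summed rod markers, Ets2 and Sox18. Endothelial markers, Ets2 and Sox18 are higher in all 4 anti-Dll4 libraries than in any control, and rod markers are lower in all 4.

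Large jumps between libraries of a group were common at these levels. Of the 10 factors, 7 had at least 1 library with 3 reads or fewer, 6 of them among the 9 tested. Mean levels of the 9 over all libraries ran from 5.96 CPM (Tal1) to 98.1 CPM (Ets1), in reads from 3′ ends that were not divided by length. Of the 7453 tested genes in that range of CPM, 68.2% had such a library too. The median SD of those genes on the log2 scale was 1.42 between control and 2.02 between anti-Dll4 libraries. In the same order, Ets2 had 0.97 and 0.99 and Sox18, the other factor with groups apart, had 2.28 and 0.49. Erg had 1.31 and 2.29, Fli1 1.80 and 2.47, and Ets1 2.43 and 2.91. Sox17 had 0.28 and 3.33, Tal1 2.03 and 1.96, Gata2 1.38 and 2.07, and Nr2f2 0.77 and 1.75.

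Relatives and partners of the 10 factors did not pass either. Of the other ETS genes 12 of 22 were in the table and 11 were tested, with 7 positive, a median log2 change of 0.65 and 0 past the threshold. Elk1, a factor of the serum response, had 73, 40 and 76 reads under control IgG and 1, 7, 11 and 5 reads under anti-Dll4, a log2 change of -3.37 ± 1.61 (SE, adjusted p = 0.696, limma) with groups that did not overlap. Etv3, a repressor, and Elf1 had changes of 2.64 and 1.93 with groups that overlap (adjusted p = 0.764 and 0.81, limma).

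Of the other SOX genes 5 of 16 were tested, with 4 positive and 0 past the threshold. Sox4, a SoxC factor of progenitor and activated cells, had an unadjusted p of 0.000742 (adjusted p = 0.178, limma). It had 48, 21 and 74 reads under control IgG and 196, 276, 631 and 332 reads under anti-Dll4, a log2 change of 2.78 ± 0.70 (SE), with every anti-Dll4 library above every control. Per 1000 CPM of endothelial markers Sox4 was at 9.97, 3.26 and 14.5 CPM under control IgG and 19.9, 24.7, 37.4 and 25.1 CPM under anti-Dll4, again without overlap. A long noncoding gene on the opposite strand, Gm26735, lies over the last 1000 bases of Sox4 in GENCODE M21, and without a stated strand rule their reads cannot be told apart. Sox15 had a change of -0.52 and Sox2, a factor of Müller glia, of 1.02 (adjusted p = 0.884 and 0.912, limma).

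Partners of Gata2 and Tal1 had no common direction: 10 of 18 were tested, 5 were positive and 5 negative, and the median was -0.01. Lmo2, the bridging protein of the complex, had 44, 127 and 3 reads under control IgG and 120, 40, 169 and 92 reads under anti-Dll4 (log2 change 1.54, adjusted p = 0.817, limma). The change of Lmo2 was 0.18 without control IgG 4 and 2.68 without control IgG 3. Zfpm1, a cofactor that binds Gata proteins, had 1 read in each control and 64, 75, 5 and 0 reads under anti-Dll4 (adjusted p = 0.76, limma). Zfpm1 met the filter only through anti-Dll4 libraries, so its higher values there are not independent of the filter. Ldb2 had a change of -1.74 (adjusted p = 0.863, limma).

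The list for COUP-TF genes and veins had 11 of 12 tested, 7 positive, a median of 0.18 and 0 past the threshold. Its smallest p were those of Tmsb10 (log2 change 1.53, adjusted p = 0.502), Slc38a5, an amino acid transporter of venous endothelium in the brain (4.84, adjusted p = 0.642), and Vwf, the von Willebrand factor (2.33, adjusted p = 0.706; all limma). Slc38a5 had 1, 0 and 1 reads under control IgG and 118, 0, 251 and 378 reads under anti-Dll4. It met the filter only through its anti-Dll4 libraries, so its rise is not independent of the filter. The anti-Dll4 library with 0 reads of Slc38a5 was number 2, the one highest in Nr2f2.

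The 28 tested of 37 other endothelial factors had 17 positive changes, a median of 0.41 and 0 past the threshold. Id3, an inhibitor of helix-loop-helix factors that BMP signalling induces, had 256, 551 and 322 reads under control IgG and 627, 1037, 886 and 1342 reads under anti-Dll4. Its groups did not overlap, at 256 ± 134 CPM (SD, n = 3) and 578 ± 149 CPM (SD, n = 4), with a log2 change of 1.26 ± 0.41 (SE, adjusted p = 0.412, limma). Foxq1, a forkhead factor of brain and retinal endothelium, and Id1 had changes of 1.60 and 1.11 with groups that overlap (adjusted p = 0.637 and 0.695, limma). The change of Foxq1 was 0.64 without control IgG 4 and 2.48 without control IgG 3. With libraries scaled on endothelial markers the change of Id3 was 0.18, that of Id1 0.03 and that of Foxq1 0.52.

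Factors linked to Notch had 8 of 10 tested, 3 positive and 5 negative, a median of -0.77 and 0 past the threshold. Smad1, which carries BMP signals, had 2, 1 and 0 reads under control IgG and 10, 94, 8 and 237 reads under anti-Dll4, a log2 change of 3.95 ± 1.70 (SE, adjusted p = 0.69, limma) with groups apart. Only control IgG 1 of its controls reached 1 CPM. Smad1 therefore met the filter through its anti-Dll4 values, and its rise is not independent of the filter. The Notch targets Hes5 and Hey1 had changes of -3.53 and -3.11 with groups that overlap (adjusted p = 0.711 and 0.742, limma). Hes5 had 122, 65 and 34 reads under control IgG and 0, 123, 0 and 3 reads under anti-Dll4.

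**Figure D4:**
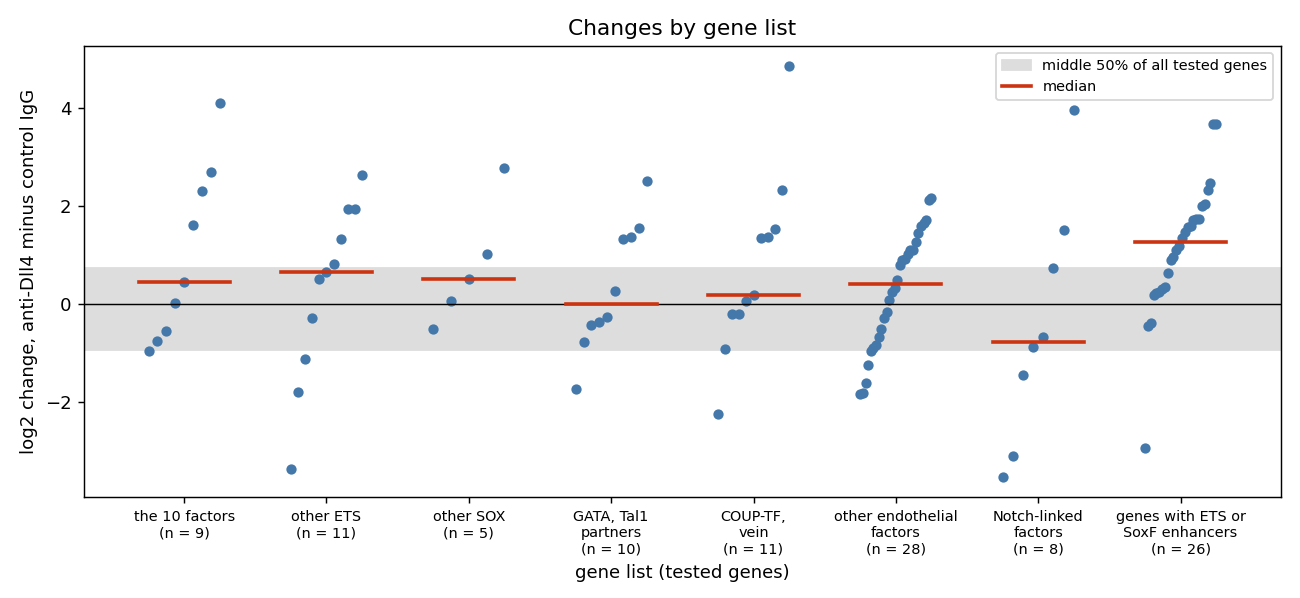
Each point is 1 tested gene (log2 change, anti-Dll4 minus control IgG, on the y axis) in the gene lists on the x axis, red bars are list medians and the grey band holds the middle 50% of all tested genes. The 9 tested factors have a median of 0.44 and spread from -0.96 to 4.10, and the genes with ETS or SoxF enhancers have a median of 1.26. The 19 endothelial markers, not drawn here, have a median of 1.56.

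The last list held endothelial genes with enhancers that ETS or SoxF factors are known to bind. Of 32 such genes 26 were tested, of which 23 were positive, with a median of 1.26 and 0 past the threshold over all genes. Of the 26, 15 are also in the endothelial marker list. The 19 endothelial markers had a median of 1.56 with 17 positive, so a rise of this size is not particular to genes with such enhancers. Esam, an adhesion molecule of endothelial junctions, had 320, 496 and 263 reads under control IgG and 976, 1014, 1769 and 1491 reads under anti-Dll4 (log2 change 1.74 ± 0.38 SE, adjusted p = 0.0768, limma). Rasip1, which is needed for vessels to form lumens, had 343, 545 and 214 reads under control IgG and 827, 1010, 1557 and 1265 reads under anti-Dll4 (1.60 ± 0.40 SE, adjusted p = 0.178, limma), and Egfl7 had a change of 1.34. All 3 had groups that did not overlap, but they were named for having the smallest p of the list. Over the 26 tested genes, 7 had groups apart, all higher in anti-Dll4, against 3.84% of all tested genes. Esam passed with a mean of at least 10 CPM as the filter (adjusted p = 0.0309) and without control IgG 3 (adjusted p = 0.0281), and Rasip1 passed without control IgG 3 (adjusted p = 0.0432, all limma). With endothelial marker scaling, in which Esam and Egfl7 are themselves markers, the changes were 0.66 for Esam, 0.52 for Rasip1 and 0.26 for Egfl7. Cdh5, the cadherin whose promoter drives the Cre and a known target of Erg, had 111, 10 and 48 reads under control IgG and 104, 17, 515 and 398 reads under anti-Dll4, and its groups overlap. Its highest libraries, anti-Dll4 3 and 4, were also the highest of Ets1 and the lowest anti-Dll4 libraries of Erg.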

How the data were processed

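The deposited table holds log10 values, which turned back are CPM plus 1, scaled by the authors to the same total in each library over 12756 listed genes. Cutadapt, TopHat2, bedtools and the build hg19 are named in the submitters' processing notes, although the symbols are those of mouse genes. How reads were counted, and whether by strand, is not given in the sources used here. Dividing by the value of 1 read gave whole reads for 100% of values (tolerance 1e-06). The protocol names no molecular identifiers, so floors of 3 reads (1.69 to 2.21 CPM) cover counting error only.

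Columns were matched to titles. For control IgG 1 no control title has that number, and it was kept as a control without one. The 10899 genes that reached 1 CPM in 3 or more libraries were tested with limma 3.58.1 in R 4.3.3 on log2(CPM + 1), with group as the only term, a mean-variance trend and Benjamini-Hochberg adjustment. The added 1 shrinks changes of low genes. Code was tested on simulated data. Alternatives were another pseudocount (0.5 or 5), filter, scaling, no trend, voom, each library left out and a replicate block.

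The 10 factors, the gene lists and the tests were chosen with earlier results of these data known. From each list of factors and targets, the 3 tested genes with the smallest p are named whatever their result. Podxl, Ly6c1, Cdh5, Kdr, Pecam1 and Ptprc were taken up after their values were seen.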

Additional observations from a re-analysis of the deposited data

Results flagged for a closer look

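In a group of 4 libraries, a value was marked where its gap to the nearest other library was above Dixon's 95% critical share of the group's range. That share marks about 1 in 20 groups of normally distributed values. CPM of genes with few reads are skewed, so 1 in 20 is no expectation here, and the marks only point to values. Of 33 genes and sums looked at in the anti-Dll4 libraries, 7 were marked, 2 of them among the 10 factors. Tal1 stood at 22.6 CPM in anti-Dll4 2, with 1.70 CPM in the next library. Nr2f2 stood at 97.2 CPM in the same library, with 13.0 CPM next. Hes5, a Notch target, was at 75.2 CPM in anti-Dll4 2 as well, with 1.69 CPM next. Hey1 was at 40.2 CPM in anti-Dll4 1, with 0.612 CPM next, and Ldb2 at 22.1 CPM in the same library, with 2.45 CPM next. In anti-Dll4 3, Id1 was low at 134 CPM, with 336 CPM next, and Egfl7 high at 1216 CPM, with 557 CPM next.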

How the results depend on the processing

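None of the factors passed the threshold in any alternative (17 for most), and 4 of the 9 tested factors (Ets1, Ets2, Sox18 and Nr2f2) kept their direction in every one. The change of Ets2 ran from 3.18 to 4.56, with adjusted p from 0.192 to 0.702. The 13 genes past the threshold over the whole table became 31 (27 higher) with a mean of at least 10 CPM, 0 without the trend, 38 (14 higher) with voom, 54 (all lower) with endothelial marker scaling and 115 (2 higher) with that scaling without Podxl, an alternative added after seeing the data. They ran from 3 to 22 with a library left out: 3 without control IgG 1 or anti-Dll4 4, 6 without anti-Dll4 1 or 2, and 22 without control IgG 3. The replicate block on the title numbers 3 and 4, which both groups share, gave 3 genes and turned Erg to -1.31 and Fli1 to 0.48. The deviations of same-numbered libraries correlated at 0.0457 and 0.0672 across genes, and those of control IgG 1 and anti-Dll4 1 at 0.0516. All other pairs of a control and an anti-Dll4 library were lower, from -0.0373 to 0.0151. The labels state no pairs and the main fit holds no block, so pairing by number was neither assumed nor settled. Endothelial marker scaling turned Erg to -0.40 and Tal1 to -0.58, and without Podxl to -0.40 and -0.52. With a library left out, Erg ran from -0.52 to 1.30, Tal1 from -0.92 to 1.12, Sox17 from -1.66 to 0.86 and Gata2 from -1.34 to 0.34. The cause of these turns was not tested. Of the 21 named genes of other lists, all kept their direction, and 2 (Esam and Rasip1) passed in some alternative. Those genes were named for the smallest p of their lists in the main fit on the same libraries. That choice favours a kept direction, so their count cannot be set against that of the factors. Endothelial marker scaling took Fli1 to -1.72, Sox17 to -1.61, Gata2 to -1.57 and Sox18 to 1.77. The difference in summed endothelial markers ran from 3331 to 4533 CPM with a library left out, where the exact test cannot reach p = 0.05, and that in rod markers was -8972 CPM (exact permutation p = 0.0286) with median-of-ratios scaling. At under about 10 reads per library, as for Tal1, depth limits what can be seen.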
